A study of Drosophila melanogaster with 42 samples.

Results

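In cells of whole Drosophila melanogaster embryos that lacked the CD2 surface marker under the duf driver, candidate regulatory regions carried by GFP+ cells were compared with those carried by unselected CD2- cells. The comparison was taken from the sample titles and used 12 of the 42 libraries of the series, 6 of duf CD2- GFP+ cells and 6 of duf CD2- input cells, and all 491 candidate regions were described. The embryos came from males of a transgenic fly pool, in which candidate regions stand before a GFP reporter, mated to females carrying a rat CD2 transgene specific to a cell type. Egg laying lasted 2 to 2.5 h at 25 °C, embryos then developed for a further 9 to 10 h at 18 °C, and dissociated cells were stained with an anti-CD2 antibody and DAPI and sorted. GFP+ libraries came from 36206 to 55331 cells each, and inputs, which were sorted as CD2- without regard to GFP, came from 200000 cells each. Both groups share the fly pool, the duf:CD2 driver and the CD2- gate, and extracts were pooled by sample type, so a library holds DNA from many embryos. A further set of 5 duf CD2- inputs of 39668 cells, called small inputs here, served as a control for cell number.

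A candidate region that acts as an enhancer in a cell switches on GFP there, and its integrated DNA copy then becomes more frequent among GFP+ cells than among all cells. The duf gene, also called dumbfounded or kirre, encodes an immunoglobulin-family adhesion protein of muscle founder cells, which attracts fusion-competent myoblasts. Cells outside the CD2+ gate include the other tissues of the embryo and any muscle cell with too little CD2 to be gated, so GFP+ CD2- cells report regions active in any of them. Only DNA of the inserted regions was counted, which gives no level of any marker gene, so the identity of the sorted cells was not checked here.

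The regions are 900 to 1101 bp long, and 123 of them overlap another. By name they fall into 288 ChIPCRM, 107 gene-named, 49 DHS_FC, 38 CBP and 9 DHS_FCM regions, prefixes that the labels do not expand. Of the 491 regions, 41 had no read in any of the 12 libraries, 50 had reads but too few to be tested, and 400 were tested. Libraries held between 17882202 and 30671351 reads in these regions. A level is given as CPM, the reads of a region per 1000000 reads in all regions of its library. The labels do not say that replicates came from separate crosses, so p-values measure the spread between libraries, which may be technical. Among GFP+ libraries, log2 CPM correlated across regions at 0.52 to 0.58 within replicates 1 to 3, at 0.49 to 0.55 within replicates 4 to 6 and at 0.42 to 0.51 between these sets, so that the sets overlapped. Among inputs the corresponding values were 0.60 to 0.71, 0.57 to 0.74 and 0.40 to 0.50, and there the sets stood apart.

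GFP+ cells carried a far more uneven mixture of regions than their input. The 10 most abundant regions of a library held 57.9% ± 3.24 of its reads in GFP+ cells and 15.4% ± 1.13 in input cells (SD, n = 6 each, two-sided exact permutation p = 0.00216, the smallest that 6 against 6 unpaired libraries allow). The lowest GFP+ library had 53.7% and the highest input 16.8%, so the groups did not overlap. The single most abundant region held 17.2% ± 1.85 of the reads in GFP+ libraries, against 1.99% ± 0.293 in inputs. Fewer regions were seen at depth after selection, with 304.0 ± 32.6 regions of at least 100 reads in GFP+ libraries and 391 ± 15.6 in inputs (exact permutation p = 0.00216). The small inputs, taken from a like number of cells without GFP selection, held 324 ± 10.2 such regions (SD, n = 5), and the mean of the GFP+ libraries was 19.6 below them (exact permutation p = 0.225). Against the small inputs the 10 most abundant regions still stood apart, at 57.9% ± 3.24 in GFP+ cells and 15.1% ± 0.387 in small inputs (exact permutation p = 0.00433).

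**Figure D1:**
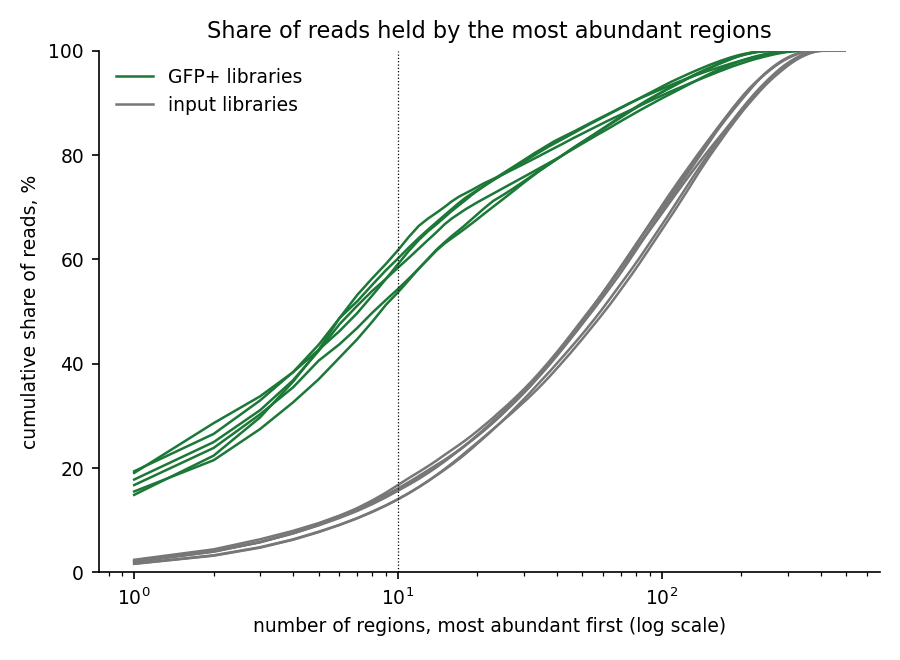
Cumulative share of reads (%, y axis) held by the most abundant regions of each library (x axis, number of regions on a log scale), with 1 line per library for the 6 GFP+ and the 6 input libraries. All GFP+ lines lie above all input lines at 10 regions (dotted line), at 53.7% or more against 16.8% or less.

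With edgeR's quasi-likelihood test and trimmed-mean (TMM) scaling, 47 regions were higher and 5 lower in GFP+ cells than in input at an adjusted p below 0.05, which is 11.8% and 1.25% of the 400 tested. TMM centres the bulk of the regions, and the median log2 change was -0.07. Because a few regions took most GFP+ reads, the typical region held 0.229 times its input CPM (median over tested regions). Scaling by total reads put the median at -2.13 and gave 22 higher and 95 lower regions, or 5.5% and 23.8% of those tested, and all 22 were among the 47. Log2 changes below are on the TMM scale and are relative to the bulk of regions, while CPM values are on the scale of total reads. The 47 higher regions held 78.4% of GFP+ reads and 13.7% of input reads.

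In 16 of the 400 tested regions (4.0%) every GFP+ library lay above every input, and all 16 were called higher. Together they held 62.5% ± 3.66 of the reads of GFP+ cells and 5.66% ± 0.803 of the reads of input cells (SD, n = 6 each). A further 89 regions (22.2%) lay below every input in all GFP+ libraries on the CPM scale, where the rise of a few regions lowers the rest. Of the 16, 15 were also called with scaling by total reads, 12 lay above every small input, and 12 were called under each of the 9 alternative settings.

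**Figure D2:**
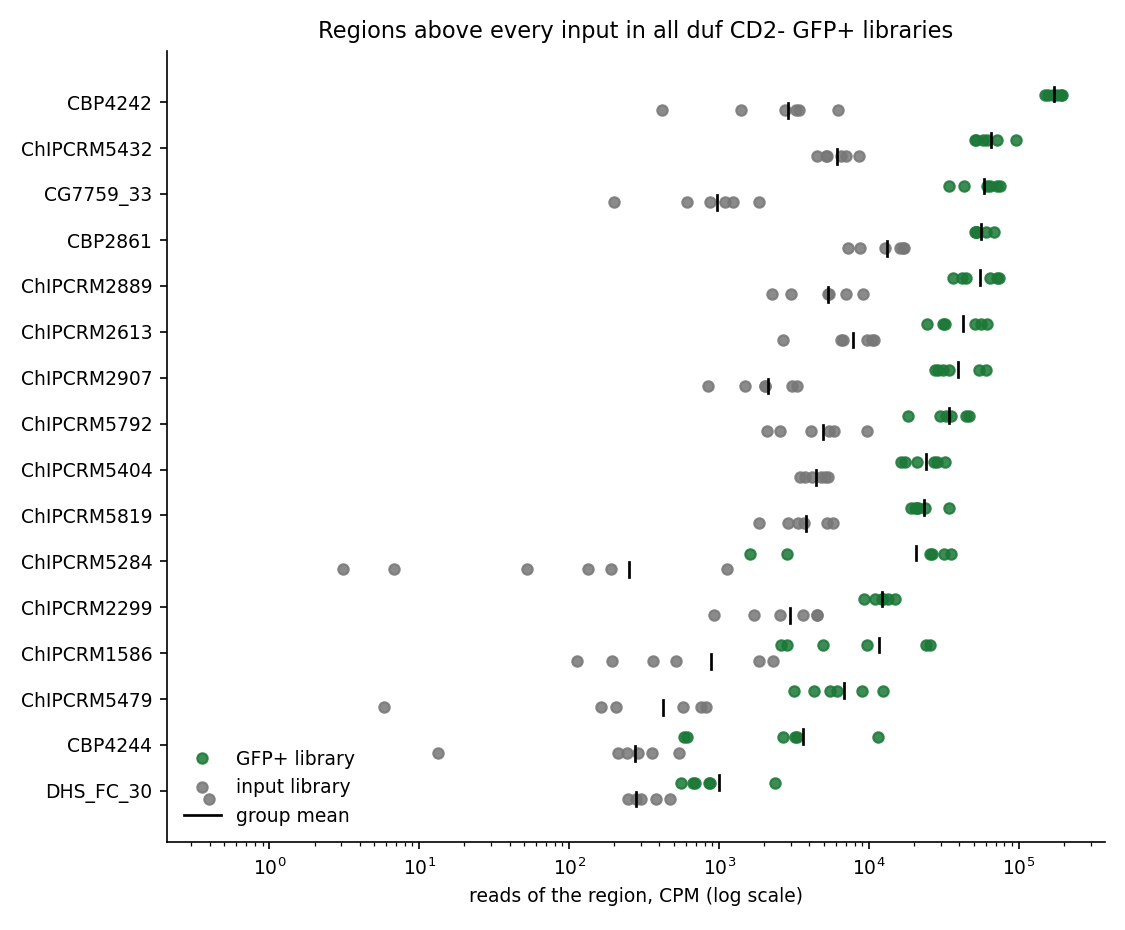
Level of each of the 16 regions that lay above every input in all GFP+ libraries (rows), in CPM on a log x axis, with 1 point per library for 6 GFP+ libraries (upper row of each pair) and 6 inputs (lower row), and bars at the group means. CBP4242 is the most abundant region of every GFP+ library, and on the log scale the inputs of DHS_FC_30, ChIPCRM5284 and ChIPCRM5479 spread most.

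CBP4242, on dm3 chr3L:20394856-20395883, was the most abundant region in GFP+ cells. Its lowest, median and highest levels were 148685, 172767 and 193909 CPM in GFP+ libraries and 414, 2994 and 6177 CPM in inputs. It ranked first in all 6 GFP+ libraries, against ranks 46 to 294 in the inputs. The log2 change was 7.97 ± 0.58 (SE, edgeR adjusted p = 4.40e-08), or a CPM ratio of 59.5. The spread between GFP+ libraries (SD 18513 CPM) was small beside a mean of 172339 CPM, against a mean of 2897 ± 1976 CPM in inputs.

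CG7759_33, named for CG7759, which RefSeq now lists as Smyd4-3, lies on arm 2R. Its gene belongs to the SET and MYND domain family, and it was placed here with contractile and attachment genes. Its lowest, median and highest levels were 34092, 62650.3 and 75132 CPM in GFP+ libraries and 199, 975 and 1839 CPM in inputs. The groups were far apart, with a log2 change of 7.94 ± 0.58 (edgeR adjusted p = 4.47e-08). Among gene-named regions it was the one whose GFP+ libraries all lay above every input, and it alone held 5.81% of GFP+ reads.

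ChIPCRM5432 (dm3 chr2L:4363360-4364283) had the smallest adjusted p of all regions, with 51114, 59213 and 95399 CPM in GFP+ libraries and 4477, 5864 and 8501 CPM in inputs (lowest, median, highest). Its log2 change was 5.49 ± 0.31 (edgeR adjusted p = 3.51e-09). It ranked 2 to 5 in GFP+ libraries and 25 to 71 in inputs.

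CBP2861 (dm3 chr3L:317954-319048) was the most abundant of the 16 in the inputs. It had 51195, 51890.2 and 68444 CPM in GFP+ libraries and 7243, 14478 and 17102 CPM in inputs, a log2 change of 4.15 ± 0.34 (edgeR adjusted p = 1.20e-07). Its CPM ratio of 4.24 was among the smaller ones, although its GFP+ level was the fourth in rank by mean. It ranked 2 to 6 in GFP+ libraries and 4 to 34 in inputs, whereas CG7759_33 ranked 2 to 8 in GFP+ libraries and 156 to 357 in inputs.

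ChIPCRM2889 (dm3 chr3R:17870003-17870903) had 36061, 54358 and 73370.2 CPM in GFP+ libraries and 2267, 5361 and 9129 CPM in inputs. ChIPCRM2907 (dm3 chr3R:17989695-17990673), on the same arm, had 27638, 32674 and 59789 CPM in GFP+ libraries and 841, 2035 and 3311 CPM in inputs. Both were separated from every input, with log2 changes of 5.41 ± 0.44 and 6.29 ± 0.43 (edgeR adjusted p = 1.20e-07 and 3.44e-08). ChIPCRM2613 (dm3 chr3R:13875672-13876661), which overlaps another region, had 24224, 41632 and 60835 CPM in GFP+ libraries and 2665, 8183 and 10786 CPM in inputs, a log2 change of 4.51 ± 0.43. On arm 2L, ChIPCRM5792 (dm3 chr2L:9454132-9455154) had 18294, 33968 and 46191 CPM in GFP+ libraries and 2080.3, 4730.3 and 9714 CPM in inputs, a log2 change of 4.89 ± 0.42.

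The next 3 regions had lower mean levels in GFP+ libraries than those above. ChIPCRM5404 (dm3 chr2L:3822201-3823115), which overlaps ChIPCRM5402, had 16302, 24165 and 32206 CPM in GFP+ libraries and 3482, 4471 and 5284 CPM in inputs, a log2 change of 4.53 ± 0.34. ChIPCRM5819 (dm3 chr2L:9988389-9989430), which overlaps ChIPCRM5820, had 18924, 21143 and 34347 CPM in GFP+ libraries and 1837, 3504 and 5709.7 CPM in inputs, a log2 change of 4.69 ± 0.39. ChIPCRM2299 (dm3 chr3R:10412527-10413427) had 9286, 12204 and 14837 CPM in GFP+ libraries and 919, 3082 and 4523 CPM in inputs, a log2 change of 4.09 ± 0.44. Their edgeR adjusted p-values were 5.06e-08, 1.20e-07 and 3.70e-06, and all remained past the threshold whichever single library was left out.

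ChIPCRM5479 (dm3 chr2L:5239387-5240375) was rare in the inputs and frequent in GFP+ cells, with 3140.5, 5815 and 12464 CPM in GFP+ libraries and 5.80, 388 and 823 CPM in inputs. Its log2 change was 6.09 ± 0.90 (edgeR adjusted p = 0.000136). It lay above every small input as well.

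The other 4 separated regions overlapped the small inputs, and their calls were lost with these as the control. ChIPCRM5284 (dm3 chr2L:2164492-2165474) had the largest fitted log2 change of all tested regions, 8.52 ± 1.45 (edgeR adjusted p = 0.000457), with 1604, 25874 and 35239 CPM in GFP+ libraries and 3.11, 92.5 and 1123 CPM in inputs, and its adjusted p was 0.0758 against the small inputs. ChIPCRM1586 (dm3 chr3R:851011-852016) had 2604, 7314 and 25670.2 CPM in GFP+ libraries and 112, 437 and 2293 CPM in inputs, a log2 change of 5.86 ± 0.91, and against the small inputs its adjusted p was 0.127. CBP4244 (dm3 chr3L:20398156-20399250) had 583, 2935 and 11427 CPM in GFP+ libraries and 13.3, 264 and 539 CPM in inputs, a log2 change of 5.87 ± 1.00, and against the small inputs its adjusted p was 0.219. These 3 were variable in one or both groups, and without any single library their calls were kept (edgeR adjusted p of at most 0.00224, 0.00122 and 0.00179).

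DHS_FC_30 (dm3 chr3L:12794411-12795502), which overlaps DHS_FC_8, had the largest adjusted p of the 16, with 561, 768 and 2341 CPM in GFP+ libraries and 0.398, 289 and 467 CPM in inputs. Its log2 change was 3.95 ± 1.07 (edgeR adjusted p = 0.0186), and the lowest GFP+ library lay little above the highest input. The call was lost without GFP+ replicate 1 or input replicate 2, 3 or 5 (adjusted p up to 0.0620), with the replicate numbers as a block (adjusted p = 0.0702) and with total-read scaling (adjusted p = 0.206).

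**Figure D3:**
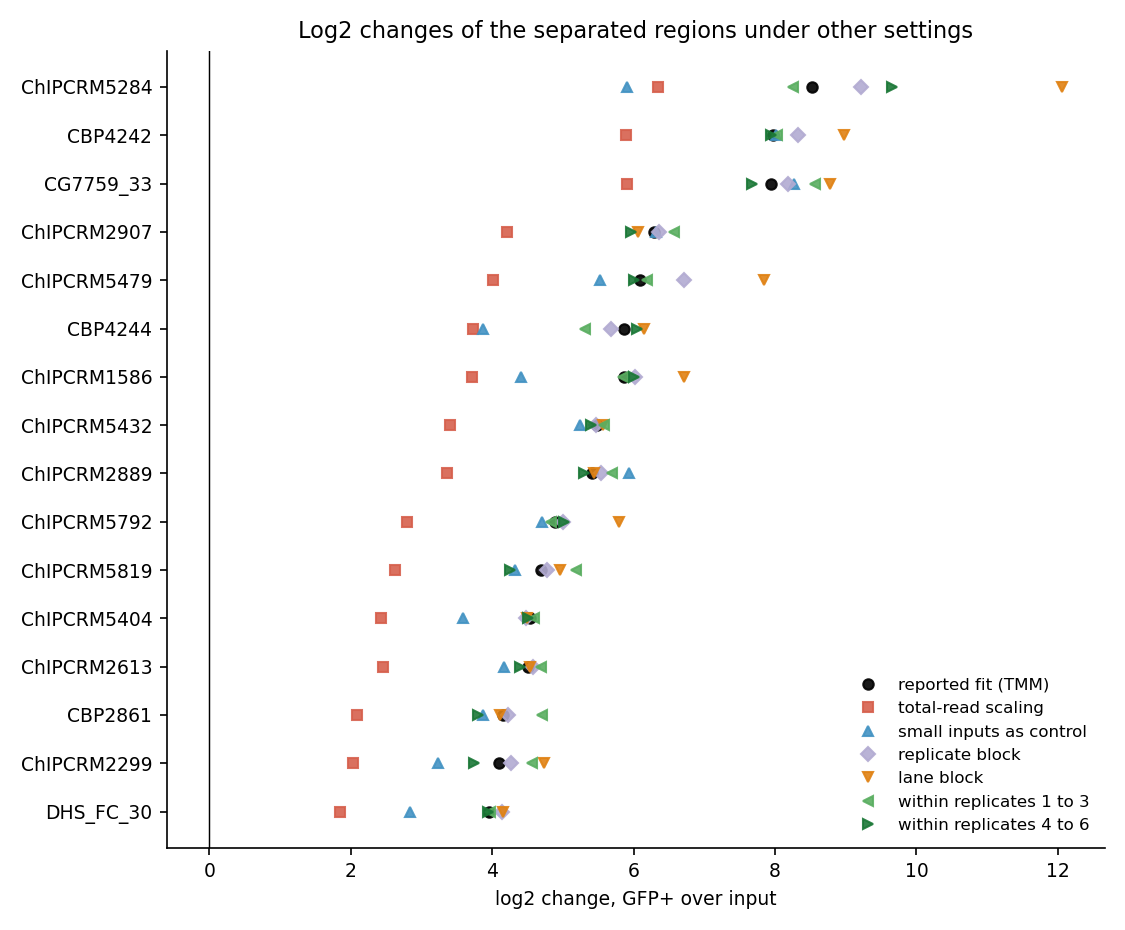
Log2 change, GFP+ over input (x axis), of the 16 separated regions (rows) in the reported fit and under 6 other settings, 1 symbol each. All values lie above 0, values with total-read scaling, where the median region lies at -2.13, are below the reported ones throughout, and ChIPCRM5284 spreads most between settings.

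The 31 higher regions that were not separated had mean levels of 909 to 16382 CPM in GFP+ cells and log2 changes of 1.98 to 5.98, with a median of 3.17, against -0.07 over all tested regions. Their median CPM ratio was 2.07. Of the 47 higher regions, 45 had a higher mean CPM in GFP+ cells than in input, as did 64 of all 400 tested. The other 2 were ChIPCRM2000, which had 10557, 13562 and 19115 CPM in GFP+ libraries and 11641, 15121 and 19246 CPM in inputs, and ChIPCRM3407. For ChIPCRM2000 the log2 change of 2.01 ± 0.28 (edgeR adjusted p = 8.73e-05) turned to -0.047 with total-read scaling (adjusted p = 0.877), and for ChIPCRM3407 the change of 1.98 ± 0.42 (adjusted p = 0.00283) turned to -0.15. Both held a like share of reads in the groups, while most regions lost share.

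Among these 31, ChIPCRM2898 had 6255, 18750.4 and 22750.4 CPM in GFP+ libraries and 1145, 4632 and 7444 CPM in inputs, a log2 change of 3.88 ± 0.55. ChIPCRM5556 had 6607, 13368 and 32108 CPM in GFP+ libraries and 939, 2463 and 7489.8 CPM in inputs, a log2 change of 4.18 ± 0.67. CBP2862, which lies 977 bp from CBP2861, had 2888, 11239 and 18774 CPM in GFP+ libraries and 207, 1826 and 4401 CPM in inputs, a log2 change of 4.58 ± 0.80. In each of these regions the lowest GFP+ library fell within the range of the inputs. Their edgeR adjusted p-values were 8.61e-05, 0.000292 and 0.000521.

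**Figure D4:**
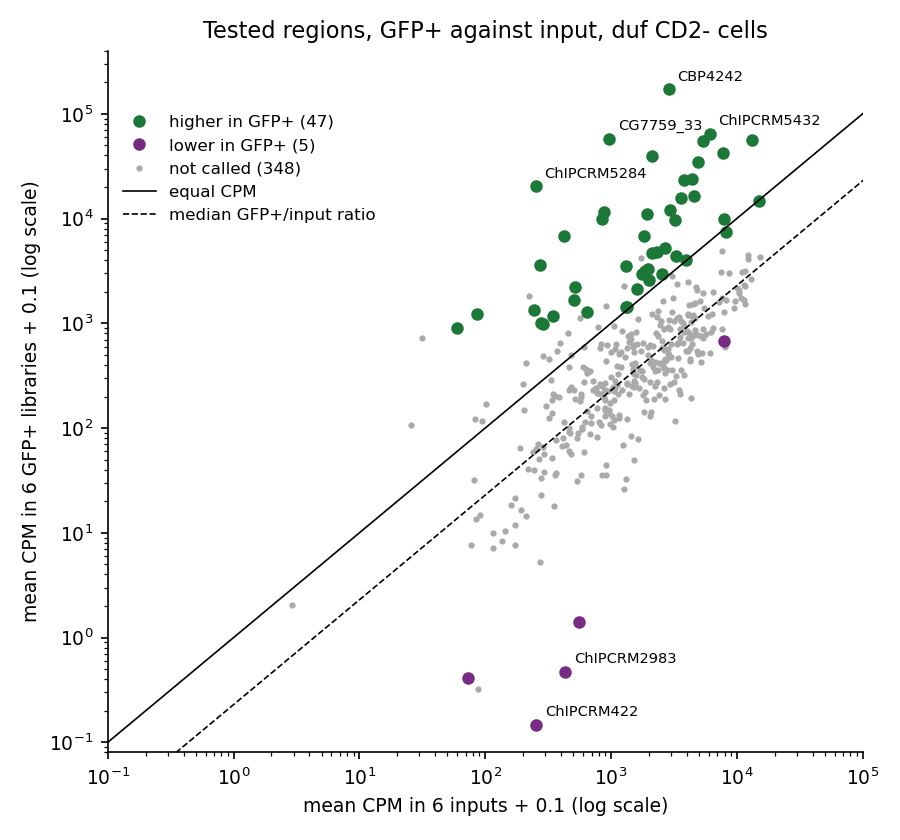
Mean level of the 400 tested regions in 6 GFP+ libraries (y axis) against 6 inputs (x axis), in CPM plus 0.1 on log scales, with the 47 higher and 5 lower regions coloured. Most regions follow the dashed line at the median ratio of 0.229, below the solid line of equal CPM, and 45 of the 47 higher regions lie above the solid line.

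Of the 5 lower regions, 4 fell to nearly no reads in GFP+ cells. ChIPCRM2983 (dm3 chr3R:19139680-19140616) had 0.0978, 0.342 and 0.682 CPM in GFP+ libraries and 141, 458 and 612 CPM in inputs, or 51 reads in all 6 GFP+ libraries against 61316 in the inputs. Its log2 change was -8.08 ± 1.56 (edgeR adjusted p = 0.00136), and per read total it was 1207 times more frequent in inputs (exact Poisson 95% interval of the GFP+ reads, giving 918 to 1621 and covering counting error only). ChIPCRM422, on arm 2R, had 7 reads in GFP+ libraries, 3 of which had none, against 39358 in the inputs, where its levels were 53.2, 203 and 562 CPM. Its log2 change was -10.21 ± 2.05 (edgeR adjusted p = 0.00193). These 2 were the lower regions called whichever single library was left out, but both calls were lost with lane as a block (adjusted p = 0.130 for ChIPCRM2983 and 0.184 for ChIPCRM422). Against the small inputs ChIPCRM2983 was called (adjusted p = 0.0148), and ChIPCRM422 was not among the regions tested.

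The remaining lower regions rested on less. CG15319_down_8, a tile at nej, the gene of the CBP acetyltransferase and transcriptional coactivator, had 42 reads in GFP+ libraries against 9432 in inputs, and its levels were at most 0.524 CPM in GFP+ libraries and 1.18 to 158 CPM in inputs. ChIPCRM6900, named here because few regions were lower and chosen after its values were seen, had 191 reads in GFP+ libraries against 81242 in inputs, and the groups overlapped. ChIPCRM4243 was the one lower region that stayed well represented, with 208, 721 and 1104 CPM in GFP+ libraries and 6014, 7869 and 10226 CPM in inputs, and its log2 change was -1.54 ± 0.47 (edgeR adjusted p = 0.0399). With the replicate numbers as a block, the adjusted p was 0.0702 for ChIPCRM4243, 0.125 for CG15319_down_8 and 0.133 for ChIPCRM6900, so that 2 lower regions were left. The small inputs, with no GFP selection, held ChIPCRM422 at 0 to 856 CPM and CG15319_down_8 at 0 to 94.2 CPM, so low or no reads also occurred there. If every sorted cell gave equal reads, 1 cell would correspond to 18.1 to 27.6 CPM in GFP+ libraries and 5.0 CPM in inputs. Of all 491 regions, 124 ± 35.0 lay above 0 and below that level in GFP+ libraries, and 28.8 ± 15.5 in inputs (SD, n = 6 each).

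By class, CBP regions took a larger share of the reads of GFP+ cells, and each other class a smaller one. CBP4242 alone held 17.2% of GFP+ reads, which lowers the shares of the other classes. Those shares were not computed without it, so their direction among the remaining reads is not shown. CBP regions held 27.1% ± 0.503 of the reads in GFP+ libraries and 7.93% ± 2.03 in inputs (SD, n = 6 each). CBP4242 was then left out of both the class and the total reads. Of the remaining reads, CBP regions held 11.9% ± 1.70 in GFP+ libraries and 7.66% ± 1.99 in inputs. This difference was smaller and stayed past the threshold (exact permutation p = 0.00433, adjusted over the 5 classes). A second region, CBP2861, held 5.58% of all GFP+ reads, and the class share without both regions was not computed. The difference is thus not shown for the rest of the class. ChIPCRM regions held 60.4% ± 1.88 in GFP+ libraries and 68.4% ± 2.52 in inputs, and DHS_FC regions 1.98% ± 0.413 in GFP+ libraries and 8.21% ± 1.07 in inputs. DHS_FCM regions held 0.958% ± 0.252 in GFP+ libraries and 2.12% ± 0.225 in inputs, and gene-named regions 9.53% ± 1.51 in GFP+ libraries and 13.3% ± 0.541 in inputs. Each difference had an exact permutation p of 0.00216 after adjustment, but shares add up to the whole, so the classes are not independent of each other. With CG7759_33 left out of the class and the total reads alike, the gene-named share of the remaining reads was 3.95% ± 0.722 in GFP+ libraries and 13.3% ± 0.521 in inputs.

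Counted by region, 9 of 31 tested CBP regions were higher, with a class median log2 change of 0.78, and 32 of 240 ChIPCRM regions, with a median of 0.14. DHS_FC regions had 2 higher of 39 and a median of -0.47, and DHS_FCM regions 1 of 8 and a median of 0.11. The gene-named class had 3 higher of 82 tested and a median of -0.30, beside -0.07 and 11.8% over all tested regions. No test of a class against the others was made on these counts.

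The gene-named regions cover 47 genes, with 105 of the 107 names matched to a symbol. The counts per gene list below stand beside 11.8% higher and 1.25% lower over all tested regions. Of 25 tested regions at muscle identity genes, which encode transcription factors that set the fate of single muscles, 1 was higher and none was lower. It was CG11202_down_5, a tile at org-1, the T-box factor of somatic and visceral muscle founders, with 1.73, 871 and 2510.1 CPM in GFP+ libraries and 2.14, 67.7 and 109 CPM in inputs. Its log2 change was 5.98 ± 1.44 (edgeR adjusted p = 0.00840), but 1 GFP+ library lay below every input, and scaling by all reads ended the call (adjusted p = 0.0553), as did the small inputs as control (0.0927). The other 13 of 14 tested org-1 tiles and all 10 tested tiles of slou, a homeobox gene of muscle founders, did not pass the test. The list of fusion genes had 3 tested regions, at the adhesion genes rst and sns and at Mef2, a transcription factor gene placed in it. None was called, and their log2 changes ran from -1.23 to 0.52.

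Of 2 tested regions at Hox genes and cofactors, hth_3 was higher. The gene hth, homothorax, encodes a TALE homeodomain cofactor of Hox proteins. The region (dm3 chr3R:6427784-6428746) had 2254, 5183 and 13915 CPM in GFP+ libraries and 340.1, 1514 and 3749.5 CPM in inputs, a log2 change of 4.01 ± 0.70 (edgeR adjusted p = 0.000521). The groups overlapped in part, yet it lay above all small inputs, which reached 1556 CPM, and it was called under each of the 9 alternative settings. The Ubx region did not pass, at a log2 change of -0.51.

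At nej, 1 of 16 tested tiles was lower and none higher, with a median log2 change of -0.55. None of 2 tested regions at cardiac and visceral mesoderm genes, both tiles of the T-box gene H15, was called, nor was odd_20, at the segmentation gene odd. No region of the 32 tested that carry other gene names was called, beside 11.8% higher and 1.25% lower over all tested regions. Of the gene-named class, only CG7759_33 and hth_3 thus had at least 1000 CPM in every GFP+ library and were called higher.

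The higher regions were spread over the arms with 18 of 97 tested on 2L, 6 of 47 on 2R, 6 of 80 on 3L, 16 of 107 on 3R and 1 of 69 on X, against 11.8% of all tested regions. The share was highest on 2L, at 18.6%, and lowest on X, at 1.45%, while 2R and 3R lay near the share over all arms, and no test between arms was made. On X the median log2 change was -0.29, and its regions held 3.42% ± 0.473 of GFP+ reads against 13.3% ± 0.785 of input reads. The share of gene-named regions differs between arms, and the tiles of org-1 and nej lie on X. GC content had a median of 43.2% in the higher regions and 42.6% in all tested ones, and it correlated with the log2 change at r = 0.08 across the 400 regions, which share the same libraries. The log2 change was also nearly unrelated to the input level (r = -0.06 across the same regions).

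Neighbouring regions were compared in pairs. The share of 11.8% higher among all tested regions is per region, while a pair can hold a higher region in either of its 2 members. Counts of pairs therefore cannot be read against that share, and no count for pairs drawn without regard to distance was made. Of 256 pairs of tested regions that lay at most 5000 bp apart without overlap, 45 held at least 1 higher region and 4 held 2. Of 53 overlapping pairs, 11 held at least 1 and 1 held 2, ChIPCRM5819 with ChIPCRM5820. The log2 changes of neighbours correlated at r = 0.23 across the 256 pairs, in which regions recur. Since reads that fall in an overlap may have been divided between regions, overlapping pairs are less certain.

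The spread between replicates depended on the regions considered. The median coefficient of variation of CPM was 99.6% in GFP+ libraries and 63.4% in inputs over the 400 tested regions. It was 46.2% in GFP+ libraries and 62.4% in inputs over the 47 higher regions, which partly follows from their selection by the test. Over the 91 regions with a mean of at least 1000 CPM in both groups it was 56.7% in GFP+ libraries and 54.0% in inputs, and 51 of these regions had the larger value in GFP+ libraries.

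The cell number differed between the groups along with GFP, and the small inputs allowed that difference to be measured without selection. The small inputs against inputs of 200000 cells gave 0 called regions of 412 by edgeR (0.0%), with 21 at an unadjusted p below 0.05, and 4 higher and 11 lower by DESeq2. With the small inputs as the control for GFP+ cells, 25 regions were higher of 387 tested (6.46%) and 1 lower, and 22 of the 25 were among the 47. CBP4242 had a log2 change of 8.02 (edgeR adjusted p = 5.85e-05) in that fit and CG7759_33 one of 8.27, both close to their values against the larger inputs.

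Enrichment in duf CD2- cells was also compared with that in CD2- cells of 2 other drivers, mef2 and twi, with 3 GFP+ libraries and 3 inputs each. These drivers are named for Mef2, which encodes a regulator of muscle differentiation, and twist, which specifies the mesoderm early on. More regions had reads in the duf libraries than in those of the other drivers, inputs included, and fly pool, batch and driver cannot be told apart. CBP4242 and ChIPCRM2613, both among the most abundant regions of duf GFP+ cells, had no read in any of the 6 mef2 or 6 twi CD2- libraries, where 3 reads correspond to at most 0.177 CPM, so their enrichment could not be compared. Both were abundant in the single pooled library of duf CD2+ GFP+ cells, at 66168 and 41600.5 CPM.

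Of the 47 higher regions, 24 were tested in mef2 CD2- cells and 7 of these were called higher there, out of 10 in all (5.46% of 183 tested). In twi CD2- cells 23 were tested and 4 called, out of 6 in all (2.94% of 204 tested). ChIPCRM2907 and CG7759_33 were called in all 3. ChIPCRM2907 averaged 39354 ± 14006 CPM in duf GFP+ cells and 2129 ± 933 CPM in their input (SD, n = 6 each), 99141 ± 7614 CPM in mef2 GFP+ cells and 20780.2 ± 6191 CPM in their input (n = 3 each), and 134824 ± 13215 CPM in twi GFP+ cells and 12828 ± 1680.1 CPM in their input (n = 3 each). Its level in duf GFP+ cells was the lowest of the 3, and its log2 change over input was 6.29 ± 0.43 there, against 3.80 ± 0.29 in mef2 and 4.70 ± 0.17 in twi cells. CG7759_33 averaged 58085 ± 16221 CPM in duf GFP+ cells and 971 ± 561 CPM in their input, 121436 ± 6468 CPM in mef2 GFP+ cells and 6898 ± 2118 CPM in their input, and 59813 ± 12679 CPM in twi GFP+ cells and 8566 ± 4408 CPM in their input.

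In the test of the difference itself, the log2 enrichment of ChIPCRM2907 was 2.24 ± 0.57 larger in duf than in mef2 CD2- cells (edgeR adjusted p = 0.0313), and that of CG7759_33 was 3.53 ± 0.81 larger in duf than in twi CD2- cells (adjusted p = 0.0251). The difference of CG7759_33 between duf and mef2 cells was 2.07 ± 0.72 (adjusted p = 0.125), and that of ChIPCRM2907 between duf and twi cells 1.28 ± 0.62 (adjusted p = 0.552). Over all regions, 15 had a larger enrichment in duf than in mef2 cells and 1 a smaller one (3.42% and 0.228% of 439), and 11 a larger one than in twi cells and none a smaller one (2.5% and 0.0% of 440, with 39 at an unadjusted p below 0.05 in either direction, and 32 larger and 12 smaller by DESeq2). In 14 of the 15 and in 10 of the 11, the GFP+ libraries of the other driver averaged under 100 CPM, so most of these differences rest on regions nearly without reads there. Of the 15, 2 were called higher in duf GFP+ cells against their own input, as were 5 of the 11, beside 11.8% of all regions tested there. With the replicate numbers as a block within each driver, 7 larger and 0 smaller were left against mef2 and 3 larger against twi.

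Beside these, CBP2861, ChIPCRM5819, ChIPCRM2299, ChIPCRM5284 and ChIPCRM5556 were higher in both duf and mef2 CD2- cells. CBP2861 had a log2 change of 4.15 ± 0.34 in duf and 2.96 ± 0.38 in mef2 cells, and the difference of 1.01 ± 0.55 did not pass the test (edgeR adjusted p = 0.519). ChIPCRM5819 had 4.69 ± 0.39 in duf and 4.70 ± 0.59 in mef2 cells. ChIPCRM2898 and CBP5467 were higher in both duf and twi CD2- cells, with log2 changes of 3.88 ± 0.55 and 2.89 ± 0.63 in duf and 3.34 ± 0.40 and 3.44 ± 0.52 in twi cells.

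**Figure D5:**
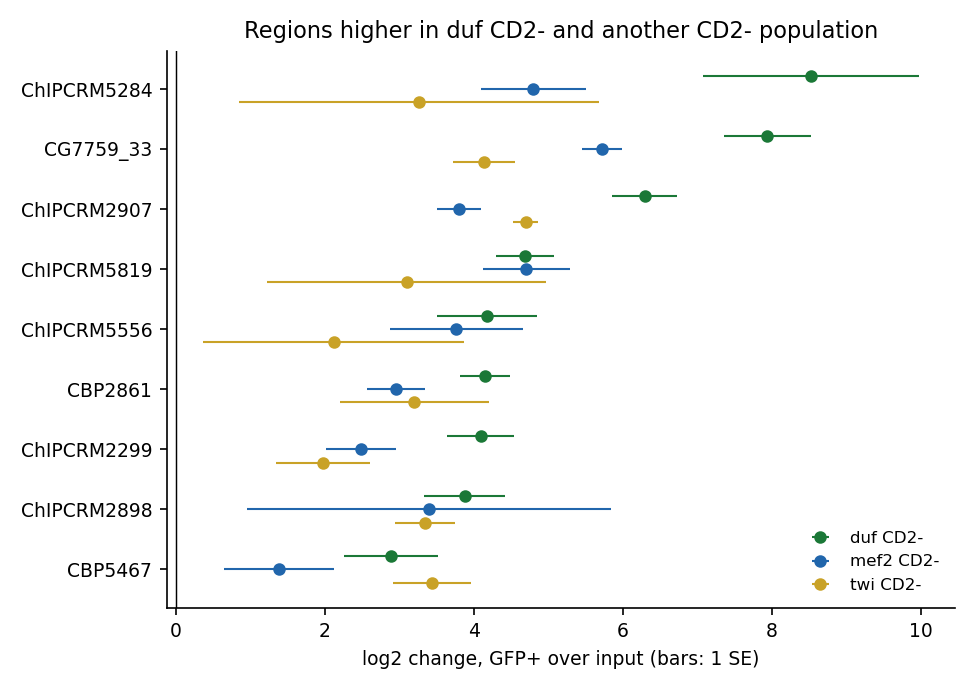
Log2 change, GFP+ over input (x axis), with bars of 1 SE, in CD2- cells of the duf, mef2 and twi drivers, for the 9 regions (rows) called higher in duf and in at least 1 other driver. Points of all drivers lie above 0, those of ChIPCRM2907 and CG7759_33 are highest for duf, and the widest bars belong to ChIPCRM2898 in mef2 and ChIPCRM5284 in twi cells.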

How the data were processed

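Embryos, sorting and library preparation are as above. Per the labels, crude genomic DNA was amplified by nested PCR of the inserts and 5 µg of product was fragmented, adapter-ligated and amplified for 10 cycles. The submitters' processing notes name CASAVA 1.8 and genome build dm3, with an aligner not given in the sources used here, if another was used. The authors deposited 1 table per library with dm3 coordinates, reads at the start and end of each region as counts, a total per region, and GC content as a fraction. The deposited total behaves as an expected count, since 69 to 87 regions per library hold fractions, and it was rounded to whole numbers. No normalization by the authors is recorded in the tables.

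Tests were run in R 4.3.3 with edgeR 4.0.16 (limma 3.58.1), with the filterByExpr filter, TMM scaling and the quasi-likelihood F test, p-values being adjusted over all tested regions by Benjamini-Hochberg (threshold 0.05). The estimated biological coefficient of variation was 139%. A standard error (SE) was taken as the size of the log2 change divided by the root of F. Alternatives were total-read scaling, DESeq2 1.42.0, other count filters, replicate or lane as a block, other inputs, reads at region ends only, and leaving out each library, and the scripts were tested on simulated data. Single values per library were compared by two-sided exact permutation tests. Reads come from PCR without molecular identifiers, so intervals and the floor of 3 reads cover counting error only.

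Regions were named where they passed the threshold with no overlap between GFP+ libraries and inputs (at most 20 higher, 10 lower), where they were called and named for a listed gene, or where they averaged at least 10000 CPM in GFP+ cells, and up to 5 per direction in the other tests. ChIPCRM3407, ChIPCRM5820, ChIPCRM6900 and the regions shared with other drivers were named after their values were seen. The regions, gene lists and rules were chosen with earlier results of these data known. Gene symbols came from a RefSeq table of a later assembly, used for names only. No dm3 genome was used here, so no region sequence is shown and no motif was counted.

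Within a group, every pair of libraries differed by more than sampling noise. The labels give GFP+ cells and inputs the same replicate numbers. Deviations from the group means correlated at 0.18 to 0.38 between same-numbered libraries, in all 6 pairs, and at -0.38 to 0.24 between others, and all 6 GFP+ libraries correlated best with the input of their own number, so the numbers were taken to pair the libraries. The reported fit and the exact permutation tests did not use this pairing, so their p-values are those of unpaired groups. Lanes were read from the labels: the 12 libraries lie in 7 lanes, of which lane 1 (1 GFP+ library and 1 input) and lane 8 (1 GFP+ library and 2 inputs) hold both groups. Within both lanes the log2 difference on the TMM scale was positive for 45 of the 47 higher regions and for all 16 separated ones. For the 16 this follows from their separation, and the 47 were selected on the same libraries, so neither count is separate support.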

Additional observations from a re-analysis of the deposited data

Results flagged for a closer look

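In 66 groups of 6 libraries checked, 4 had 1 library far from the others, and chance alone gives about 1 in 20 such groups. ChIPCRM5819 had 34347 CPM in GFP+ replicate 1, while the other GFP+ libraries had 18924 to 23666 CPM. CBP4244 had 11427 CPM in GFP+ replicate 6, against 583 to 3308 CPM in the others. DHS_FC_30 had 2341 CPM in GFP+ replicate 1, against 561 to 875 CPM in the others. ChIPCRM5284 had 1123 CPM in input replicate 3, against 3.11 to 191 CPM in the other inputs. Without the library concerned, the calls of ChIPCRM5819, CBP4244 and ChIPCRM5284 were kept, and that of DHS_FC_30 was lost.

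The enrichment of several regions differed between duf CD2- cells and those of another driver in edgeR's test of the difference. Against mef2, the log2 enrichment was larger in duf cells by 7.94 for cib_Up_4, 10.06 for ChIPCRM3812, 8.22 for ChIPCRM6149, 9.61 for ChIPCRM4245 and 9.47 for jumu_a_8. None of these 5 was called in duf cells, at log2 changes of -0.71 to 0.87, and each averaged at most 8.52 CPM in mef2 GFP+ cells while averaging 946 to 6888 CPM in mef2 input. It was smaller in duf cells by -10.31 for ChIPCRM3152, which averaged 0.00543 CPM in duf GFP+ cells and 1.95 CPM in duf input, against 115704 CPM in mef2 GFP+ cells and 14502 CPM in mef2 input, so that its duf side rests on almost no reads. Its adjusted p was 0.0459, and 0.0313 to 0.123 without single libraries. With the replicate numbers as a block, its call and that of ChIPCRM4245 were lost (adjusted p = 0.216 and 0.296), and those of the other 4 were kept.

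Against twi, the log2 enrichment was larger in duf cells by 8.56 for ChIPCRM2947+2948, 16.09 for CG11202_a_1, 7.21 for CBP5211, 11.73 for CBP324 and 6.42 for ChIPCRM4245. ChIPCRM2947+2948 and CBP5211 were also higher in duf GFP+ cells, at log2 changes of 2.83 ± 0.57 and 2.52 ± 0.65 (edgeR adjusted p = 0.00193 and 0.0141). CG11202_a_1 had no read in twi GFP+ cells, so its fitted difference is no bound, and CBP324 averaged 0.112 CPM there. The calls of CBP324 and ChIPCRM4245 were lost without twi GFP+ replicate 2 (adjusted p = 0.0790 for each), and that of CBP324 also without twi GFP+ replicate 3. With the replicate numbers as a block, 2 of these 5 were called, ChIPCRM2947+2948 (adjusted p = 0.0212) and ChIPCRM4245 (0.0274).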

How the results depend on the processing

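The number of higher regions (47) was 22 with total-read scaling, 17 with lane as a block, 25 with the small inputs as control and 27 within replicates 4 to 6, an alternative chosen after seeing the data. The other alternatives gave 41 to 60, among them 43 within replicates 1 to 3, and leaving out single libraries 39 to 50. The number of lower regions (5) was 95 with total-read scaling, 11 with DESeq2, 2 with the replicate block, and 1 each with the lane block and the small inputs. It was 2 without input replicate 1, 5 or 6, 3 without GFP+ replicate 3 or input replicate 2 or 3, and 8 without GFP+ replicate 2 or 6 (range 2 to 8). A like number could hold other regions. Without the filter on low counts 5 were lower, 2 of them among the reported 5, and within replicates 4 to 6 5 were lower, 0 of them among these. With total-read scaling and with DESeq2 all 5 reported ones were kept. With the pairing of replicate numbers as a block, 42 regions were higher, 41 of them among the 47. Of the 47, 37 were called whichever single library was left out, 15 under all 9 alternative settings, and all 47 had positive changes within both replicate sets. Of the 16 separated regions, 16 were called within replicates 1 to 3 and 14 within replicates 4 to 6. Both replicate sets are parts of the 12 libraries on which the 47 and the 16 were selected, so these counts are no independent check. ChIPCRM2000 turned to -0.047 with total-read scaling. With lane as a block, 14 of the 16 separated regions and none of the 5 lower ones were called, and only 5 of 12 libraries lie in lanes that hold both groups.

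DESeq2 called 4 higher and 11 lower regions in the small inputs. For the difference from mef2 cells it gave 43 larger and 10 smaller, the replicate block 7 and 0, total-read scaling 2 smaller, and regions with at least 100 CPM in both inputs (added after seeing the data) 25 and 0. Leaving out single libraries gave 6 (without duf input replicate 1; 7 without mef2 GFP+ replicate 2) to 21 larger (without mef2 GFP+ replicate 1) and 0 to 3 smaller. For the difference from twi cells, DESeq2 gave 32 larger and 12 smaller and the replicate block 3 larger, and leaving out single libraries 5 (without twi input replicate 2; 6 without duf GFP+ replicate 5 or twi GFP+ replicate 2; 7 without duf input replicate 5 or 6 or twi input replicate 3) to 17 larger (without twi GFP+ replicate 1) and 0 to 1 smaller. The number of regions with at least 100 reads differed by -19.6 from the small inputs, short of the threshold. Shares of the 10 most abundant regions and of the classes kept their direction and call under every alternative run, in tests that took the libraries as unpaired. None of these alternatives took CBP4242 out of the total reads for the classes other than CBP. The cause of the changes between settings was not tested. In these 12 libraries 3 reads correspond to at most 0.168 CPM, and the biological coefficient of variation was 139%.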

Other observations

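Higher regions lay near each other in places. With successive higher regions joined where at most 100 kb separate them, a description chosen after their values were seen, 23 of the 47 fell into 10 runs. In the longest by number, dm3 chr3R:17870003-17990673, all 4 candidate regions of the interval were higher: ChIPCRM2889, ChIPCRM2898, ChIPCRM2901 and ChIPCRM2907. ChIPCRM2901 had 3918, 10231 and 14202 CPM in GFP+ libraries and 1437, 2515 and 7423 CPM in inputs (lowest, median, highest), a log2 change of 3.69 ± 0.53 (edgeR adjusted p = 0.000107). In dm3 chr2L:2164492-2182694, the 3 tested regions of 4 were higher, ChIPCRM5284, ChIPCRM5285 and ChIPCRM5291. The ends of a run are higher regions by construction, so these counts are a description with no test, and the genes in the intervals were not analysed here. Candidate regions themselves lie close together, with 123 of the 491 overlapping another. No like count of runs was made over all tested regions, so the runs do not show that higher regions cluster.

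Neighbours differed in size. CBP4244 lies 2272 bp from CBP4242 and averaged 3634 ± 4010.1 CPM in GFP+ cells and 275 ± 173 CPM in input, a level far below that of CBP4242 in both groups, with a log2 change of 5.87 ± 1.00 beside 7.97 ± 0.58. ChIPCRM5820, which overlaps ChIPCRM5819, averaged 9871 ± 1277 CPM in GFP+ cells and 7937 ± 1148 CPM in input (SD, n = 6 each), and its log2 change of 2.37 ± 0.30 (edgeR adjusted p = 2.50e-05) became 0.31 with total-read scaling (adjusted p = 0.362).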
